A study of Saccharomyces cerevisiae with 13 samples.

Results

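The 34 genes described here encode the subunits of the 26S proteasome of *Saccharomyces cerevisiae* together with the deubiquitinating enzyme that travels with it, *UBP6*. They were chosen by name, not by any measured value, and 33 of them had a transcript model among the 4280 models of the deposited tables. The core particle contributed 14 genes, 7 for its α rings and 7 for its β rings, and all 14 had a model. The regulatory particle contributed 20 genes, of which 19 had a model, since *RPT1*, an ATPase subunit, was not among the models.

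The proteasome degrades proteins that carry ubiquitin chains. Its core particle is a barrel in which β subunits cut the substrate and α subunits form the gate, and its regulatory particle binds ubiquitin, removes it and feeds the unfolded substrate into the barrel through a ring of ATPases. In budding yeast most proteasome genes share a promoter element, the proteasome-associated control element (PACE), which is bound by the transcription factor Rpn4, and Rpn4 is itself a rapidly degraded substrate of the proteasome. Heat unfolds proteins and so adds substrates, and the heat shock factor Hsf1 and the stress factors Msn2 and Msn4 drive much of the transcription that follows.

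Nascent and total RNA of the haploid strain BY4742 were compared after heat shock and in log growth in rich medium (YPD). The 4 groups were NRO (HS), NRO, total RNA (HS) and total RNA, where HS marks cultures moved from 30° to 39° for 20 min and the other groups were kept in exponential growth at 30°. NRO, the nuclear run-on, holds RNA that engaged polymerases extended with biotin-UTP in permeabilized cells and that was selected on streptavidin beads, so it measures ongoing synthesis, while total RNA was taken without the selection and measures abundance. Each group held 3 strand-specific libraries, which had been merged before deposit, so that there was 1 value per gene and group. A further NRO library from 3′ ends, which brings the number to 13, was not analysed here.

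Values are read densities, the mean read depth per mappable exonic base of a gene, which the authors scaled by each library's acquired bases, with the first 200 bp after the transcription start site (TSS) left out. Each is an average over a culture relative to the other transcripts of its library, in which fewer expressing cells and less RNA per cell cannot be told apart. The depth behind them was 378273 estimated reads in NRO (HS), 2491144 in NRO, 656630 in total RNA (HS) and 894262 in total RNA, with a median of 8, 69, 11 and 23 reads per model in the same order. The proteasome genes held 2188 of these reads in NRO (HS), 9083 in NRO, 4956 in total RNA (HS) and 5767 in total RNA. The median member had 47, 183, 54 and 90 reads, more than the median model, so its counting intervals were narrower. With replicates merged, no replicate error could be given, and every interval below is an exact 95% interval (Clopper-Pearson) on estimated reads that covers counting error only. The heat shock label was checked on 8 genes known to be induced by heat. All 8 were at least 2-fold higher in total RNA (HS) than in total RNA, by 2.95-fold for *SIS1* up to 85.7-fold for *HSP12*, and 6 of the 8 were so in NRO (HS) over NRO.

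The exact PACE, GGTGGCAAA on either strand, was present in the promoters of 27 of the 34 proteasome genes (79.4%), against 72 of all 6001 promoters (1.20%), where a promoter is the window from 250 bases before to 50 bases after the start codon in the R64 assembly. It was found in 12 of 14 core genes and in 15 of 20 regulatory genes. The 27 sites began 84 to 183 bases upstream of the start codon, with a median of 120, and 19 read on the strand of the gene and 8 on the opposite strand. The base that followed the site was A in 18 sites, T in 8 and C in 1. The sites below are shown because the results turn on these genes: among members with at least 10 reads *PRE6*, *RPT6* and *PRE2* had the highest nascent ratios after heat shock, *PUP2* and *RPT3* the lowest, and *PRE4* the lowest ratio in total RNA, while *RPN3* and *RPN9* had almost no reads in any library. Each is given 5′ to 3′ on the strand that reads GGTGGCAAA, with the PACE in capitals and 10 bases on either side.
PRE6: tttcccttccGGTGGCAAAagaatcttcg
RPT6: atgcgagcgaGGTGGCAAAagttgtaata
PRE2: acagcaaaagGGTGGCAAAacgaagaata
PUP2: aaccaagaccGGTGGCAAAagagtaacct
RPT3: ctgaaagtaaGGTGGCAAAatagtaaatc
PRE4: acgtatttaaGGTGGCAAAttctaaacca
RPN3: ctctttcttgGGTGGCAAAtgtttttcgt
RPN9: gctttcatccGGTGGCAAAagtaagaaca

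In R64 these stretches lie at chrXV:255218-255246 (minus strand) for *PRE6*, chrVII:411352-411380 (minus) for *RPT6*, chrXVI:732184-732212 (plus) for *PRE2*, chrVII:999226-999254 (minus) for *PUP2*, chrIV:1261495-1261523 (plus) for *RPT3*, chrVI:249959-249987 (plus) for *PRE4*, chrV:196843-196871 (minus) for *RPN3* and chrIV:1322086-1322114 (plus) for *RPN9*. The sites of *PRE6*, *PRE4* and *RPN3* read opposite to their genes. The sites were found by an exact match, so that they share these 9 letters was fixed by the search and says nothing on the direction of change. *RPN10*, whose nascent RNA was 2.81-fold higher after heat shock, had no exact match.

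**Figure D1:**
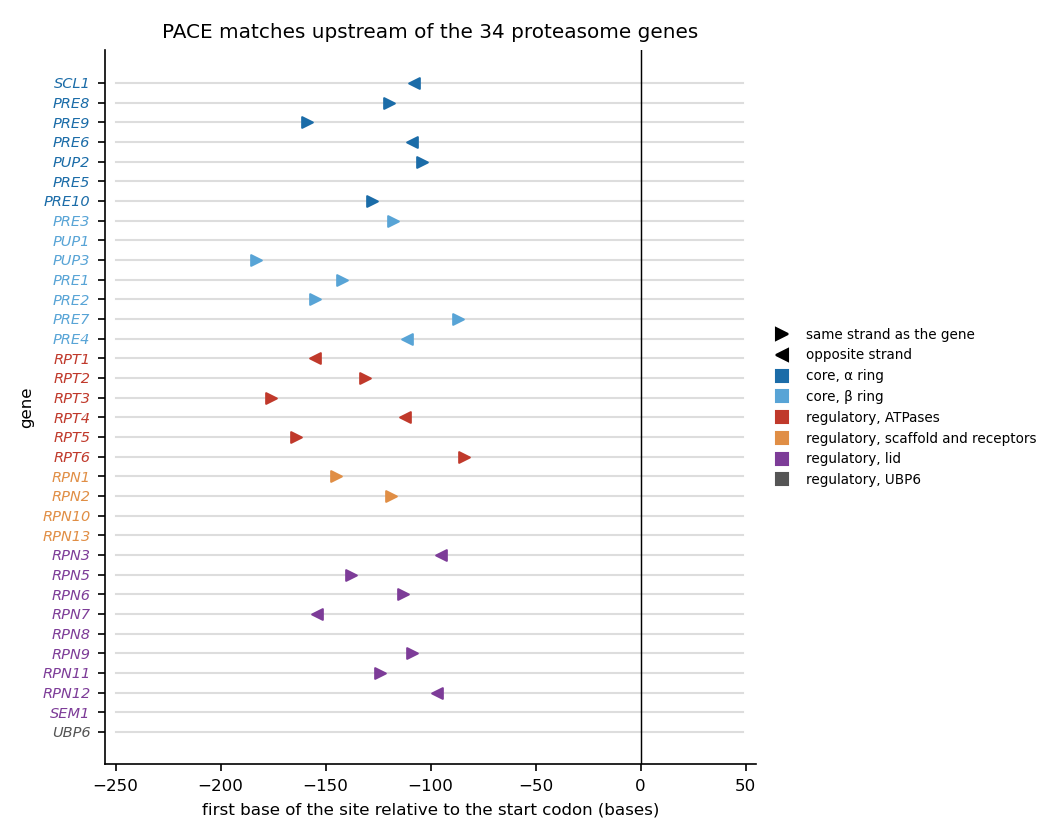
Position of the exact PACE (GGTGGCAAA) in the promoter windows of the 34 proteasome genes. The x axis gives the first base of the site relative to the start codon in bases, each row is a gene, arrowheads pointing right mark sites on the strand of the gene (19) and arrowheads pointing left sites on the opposite strand (8), and colours mark the subcomplex. All 27 sites lie 84 to 183 bases upstream of the start codon.

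Dropping the first letter added *PRE5*, *PUP1*, *RPN8* and *UBP6*, so that 31 of 34 promoters (91.2%) held GTGGCAAA, against 144 of 6001 (2.40%). All 14 core genes were then included. *PUP1*, *PRE5* and *UBP6* thus carried the element with another first letter, as the sites below show, again with the matched letters in capitals and 10 bases on either side.
PUP1: acccggccgaGTGGCAAAataccaaaaa
PRE5: ctattatagaGTGGCAAAattaaaaatt
UBP6: attacttgcaGTGGCAAAattcgaaaag

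They lie at chrXV:631891-631918 (minus), chrXIII:901553-901580 (plus) and chrVI:164956-164983 (minus) of R64. The windows of *RPN10*, *RPN13* and *SEM1* did not hold these letters. None of the 34 windows held the heat shock element searched, which 47 of 6001 promoters held (0.783%). The element is TTC, GAA and TTC with any 2 bases between the blocks, on either strand. The window of *RPN4* held 1, beginning 21 bases upstream of the start codon. The counted region of *RPN4*, chrIV:414993-416750 of sacCer2, starts 200 bp after the TSS of this minus-strand gene. By these coordinates the match lies within the transcript and not upstream of its TSS, although the 2 assemblies were not aligned here. It is shown with its letters in capitals and lies in chrIV:416709-416737 (minus strand of R64).
RPN4: caaaagttTTCTAGAATTTTCaagcaatc

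The heat shock element as searched was found in only 2 of the 8 heat shock marker promoters, so its absence here says no more than that these letters were missing from the windows. The stress response element AGGGG was present in 8 of the 34 windows (23.5%) and in 21.6% of all promoters. It was found in *PRE9*, *PRE10*, *PUP3*, *PRE4*, *RPN13*, *RPN3*, *RPN5* and *RPN11*. In *PRE9* it began 40 bases after the first base of the start codon, within the coding sequence. Upstream of the start codon it was present in 7 of the 34 windows (20.6%) and in 18.8% of all promoters. The sites were found by letters alone and are a description of the sequence.

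Most proteasome genes were among the more strongly transcribed and more abundant genes of the cell. Their median read density was 0.133 in NRO (HS), 0.110 in NRO, 0.0987 in total RNA (HS) and 0.102 in total RNA, against 0.0159, 0.0214, 0.0131 and 0.0192 over all models in the same order. The median member thus lay above 82.9% of all models in NRO (HS), 80.8% in NRO, 81.1% in total RNA (HS) and 79.3% in total RNA. The members fell into separate groups of levels. In 23 of them at least 1 library reached a density of 0.0873, and in the other 10 no library reached 0.01.

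Although the subunits are assembled in fixed proportions, the 23 well-covered genes did not have equal RNA levels. The highest exceeded the lowest by 36.6-fold in NRO (HS), 6.40-fold in NRO, 14.5-fold in total RNA (HS) and 12.0-fold in total RNA. In NRO (HS) the lowest was *PRE3* (0.0265), which rested on only 7 reads, so the range in that library is uncertain. The SD of their log2 densities was 1.20 in NRO (HS), 0.74 in NRO, 1.23 in total RNA (HS) and 1.15 in total RNA. Over all models not under 0.01 throughout, the SD was 2.20 in NRO (HS), 2.06 in NRO, 2.37 in total RNA (HS) and 2.18 in total RNA. NRO, the library with the most reads, thus had the lowest SD in both, and the part of depth was not tested. *RPN10*, a ubiquitin receptor that sits between the base and the lid of the regulatory particle, had the highest nascent density in both conditions and the highest abundance after heat shock (0.972 in NRO (HS), 0.346 in NRO, 0.790 in total RNA (HS) and 0.535 in total RNA). In total RNA of log growth it stood next to *RPN1* (0.547), the scaffold that also docks ubiquitin-binding shuttle proteins, ahead of the scaffold *RPN2* (0.465) and of the β subunit *PUP3* (0.404). At the other end of that library were *RPN11* (0.0456), *SCL1* (0.0461) and *PUP2* (0.0488), whose 28 to 33 reads do not separate them.

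**Figure D2:**
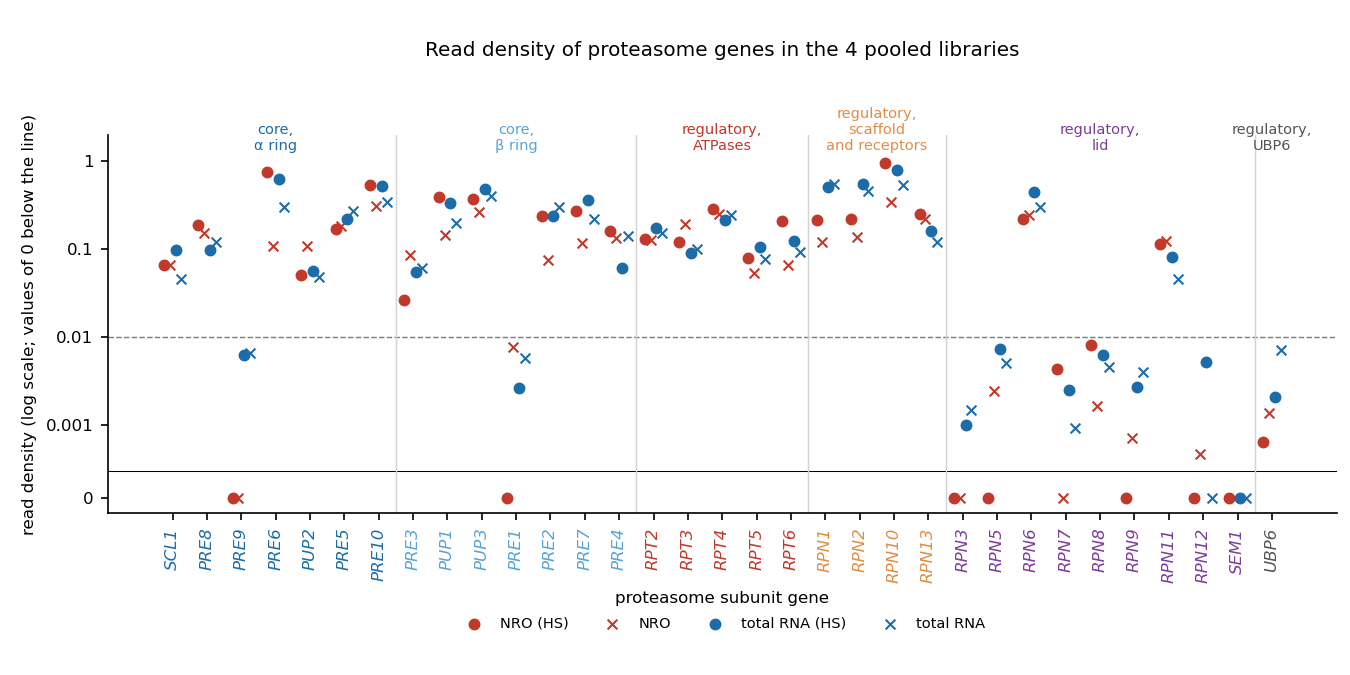
Read density of the 33 proteasome genes with a transcript model in the pooled libraries NRO (HS), NRO, total RNA (HS) and total RNA (y axis, read depth scaled to the bases acquired, log scale, with values of 0 below the solid line), grouped by subcomplex along the x axis. The dashed line marks 0.01, and 10 genes, 7 of them in the lid, lie under it in all 4 libraries.

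The 10 genes under 0.01 in all 4 libraries were *PRE9*, an α subunit, *PRE1*, a β subunit, the lid genes *RPN3*, *RPN5*, *RPN7*, *RPN8*, *RPN9*, *RPN12* and *SEM1*, and *UBP6*. They made up 30.3% of the 33 members, close to the 30.2% of all models (1292 of 4280) that were under this limit, which was chosen after the values were seen. They were unequally spread over the complex, with 7 of 9 lid genes, 1 of 7 α genes, 1 of 7 β genes and no ATPase, scaffold or receptor gene. Their highest density in any library was 0.00813 (*RPN8*), and their reads summed over the 4 libraries came to 20 at most, whereas each of the other members had at least 200. *RPN3*, *RPN5*, *RPN8*, *RPN12* and *PRE1* are among the genes that yeast cannot lose.

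*SEM1*, whose region covers only 169 bases, had no read in any library. *PRE9* had none in NRO (HS) or NRO, 3 in total RNA (HS) and 4 in total RNA, and *RPN3* had none in NRO (HS) or NRO, 1 in total RNA (HS) and 2 in total RNA. Nascent RNA of these lid and α genes was therefore not detected, and the reason was not tested. *PRE1* had 0 reads in NRO (HS), 11 in NRO, 1 in total RNA (HS) and 3 in total RNA. *RPN5* had 0 in NRO (HS), 8 in NRO, 6 in total RNA (HS) and 6 in total RNA. These counts are too low to order the libraries. *RPN9*, a lid subunit that cells can lose, had 0 reads in NRO (HS), 2 in NRO, 2 in total RNA (HS) and 4 in total RNA. *RPN12* had 0 in NRO (HS), 1 in NRO, 3 in total RNA (HS) and 0 in total RNA. *RPN7* had 2 in NRO (HS), 0 in NRO, 2 in total RNA (HS) and 1 in total RNA. A count of 0 allows up to 3 reads, which for these genes is a density of up to 0.0469 in NRO (HS) and 0.00713 in NRO (both for *SEM1*) and of 0.00529 in NRO (HS) and 0.000803 in NRO for *RPN3*.

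Every base of these 10 regions was mappable. On the plus strand 9 of 19 proteasome genes were under 0.01 in all 4 libraries, and on the minus strand 1 of 14, while over all models the shares were 31.3% and 29.1%. The part of strand in the low values was not tested. The PACE was present in 7 of the 10 low promoters and in 19 of the 23 others with a model, and whether it bears on the low values was not tested.

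After heat shock, nascent RNA of the proteasome genes was higher for most members and for a few of them by several fold. In NRO (HS) over NRO, 18 of the 25 members with a ratio were above 1, against 46% of all models, and the median log2 ratio was 0.31 against −0.10 over all models. At the 2-fold limit 7 members were higher (16.2% of all models) and 3 were lower (23.1%). The counting interval lay above 1 in 11 members (23% of all models) and below 1 in 3 (29.8%). With at least 10 reads in both libraries it lay above 1 in 11 of 22 members and 608 of 2031 models. It then lay below 1 in 2 members and 602 models. Summed over the 33 genes, the nascent signal was 1.59-fold higher after heat shock (95% interval 1.51 to 1.66).

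Abundance was also higher for most members, with fewer past 2-fold. In total RNA (HS) over total RNA, 18 of 31 members were above 1, against 34.2% of all models, and the median log2 ratio was 0.27 against −0.41 over all models, so that 26 of the 31 lay above the median model. Relative to the median model the members' median was 0.68 higher in total RNA and 0.42 higher in nascent RNA. Only 3 members were 2-fold higher (10.2% of all models) and 3 were 2-fold lower (27.7%). Among the 6, *RPN7*, *PRE1* and *UBP6* had 2 and 1, 1 and 3, and 2 and 10 reads after heat shock and in log growth, too few to judge. The counting interval lay above 1 in 11 members (12.5% of all models) and below 1 in 2 (33.3%), and the summed signal was 1.17-fold higher (1.13 to 1.22). With at least 10 reads in both libraries the interval lay above 1 in 11 of 23 members and 358 of 2176 models. It then lay below 1 in 2 members and 823 models. Both intervals lay above 1 in 8 of the 25 members with both ratios, *PRE6*, *PRE10*, *PUP1*, *PUP3*, *PRE7*, *RPT5*, *RPN2* and *RPN10*, against 8.16% of all models, and in no member did both lie below 1 (17.4% of all models). These 2 shares cover models of any depth. The median model had 8 reads in NRO (HS) and the median member 47, so the models had wider intervals and the shares are not matched for depth.

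**Figure D3:**
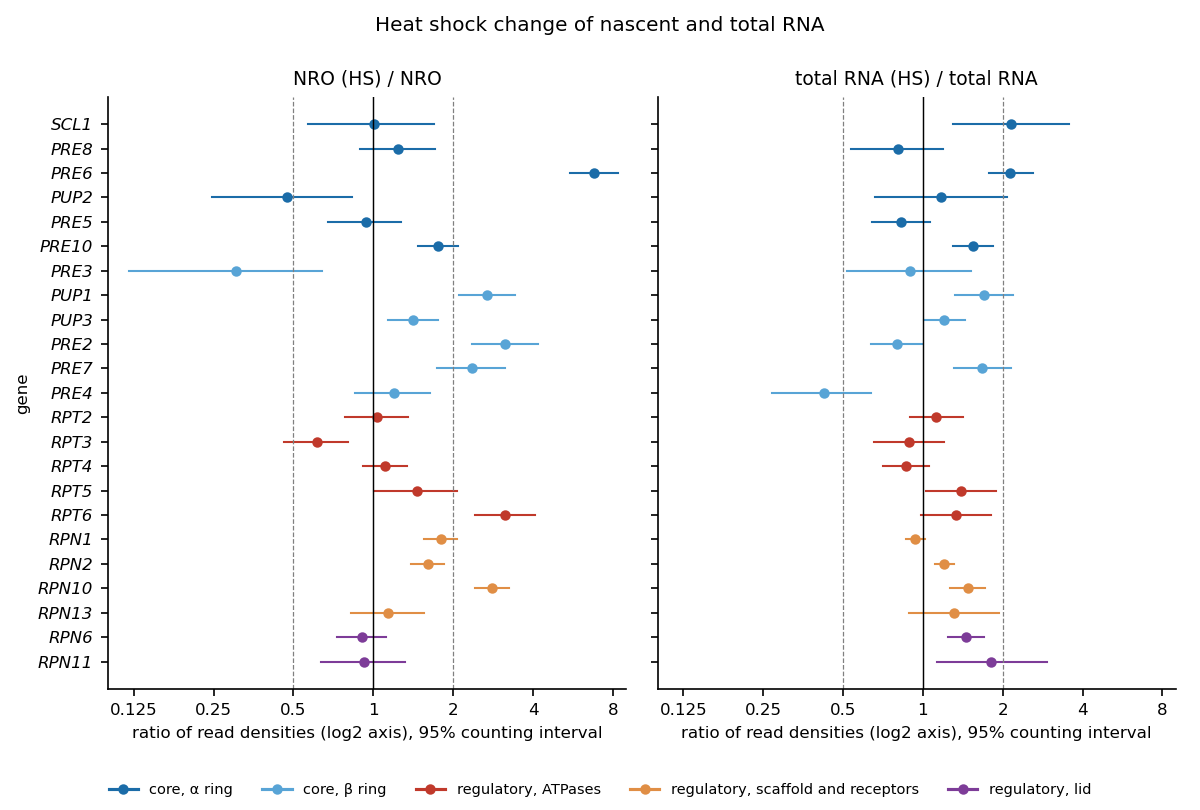
Ratio of read densities after heat shock to log growth in nascent RNA (left) and in total RNA (right) for the 23 proteasome genes above 0.01 in at least 1 library. Points are ratios on a log2 axis, bars are exact 95% counting intervals, dashed lines mark 2-fold limits and colours mark the subcomplex. *PRE6* has the highest nascent ratio at 6.81, and no other gene plotted exceeds 3.15.

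Among the α ring genes *PRE6* (YOL038W) stood apart. Its density was 0.752 in NRO (HS), against 0.110 in NRO, and 0.640 in total RNA (HS), against 0.299 in total RNA. From the fewest to the most reads the 4 values rested on 178 to 280. *PRE6* thus rose 6.81-fold in nascent RNA (5.52 to 8.38) and 2.14-fold in abundance (1.77 to 2.60), the only member past 2-fold in both (4.60% of all models). Its region in the authors' sacCer2 coordinates is chrXV:255503-256168 on the plus strand. *PRE10*, another α subunit, had 0.541 in NRO (HS) and 0.308 in NRO, a 1.75-fold difference (1.47 to 2.09), and was 1.54-fold higher in total RNA (1.30 to 1.84).

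*SCL1* (YGL011C), also of the α ring, showed the reverse order. Its nascent density was 0.0662 in NRO (HS) and 0.0656 in NRO (ratio 1.01, 0.567 to 1.69), while its abundance was 0.0987 in total RNA (HS) and 0.0461 in total RNA, a 2.14-fold rise (1.30 to 3.57, from 44 and 28 reads). *PUP2* (YGR253C), an α subunit, fell in nascent RNA, to 0.0514 in NRO (HS) against 0.109 in NRO (0.473-fold, 0.247 to 0.829, from 13 and 181 reads), and its abundance was 0.0573 in total RNA (HS) and 0.0488 in total RNA, within counting error. *PRE8*, an α subunit, had 0.190 in NRO (HS) and 0.153 in NRO, and 0.0978 in total RNA (HS) and 0.121 in total RNA, and neither ratio (1.24 and 0.808) left the counting error. The same held for *PRE5*, with ratios of 0.939 and 0.828.

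The catalytic β subunits went in different directions. *PRE2* (YPR103W, chrXVI:732452-733270 of sacCer2, plus strand), which carries the chymotrypsin-like activity, had a nascent density of 0.239 in NRO (HS) against 0.0762 in NRO, a 3.14-fold rise (2.35 to 4.17, from 74 and 155 reads). Its abundance was 0.242 in total RNA (HS) and 0.303 in total RNA, a ratio of 0.798 whose interval (0.637 to 0.995) just excluded 1. *PUP1* (YOR157C), which carries the trypsin-like activity, rose 2.69-fold in nascent RNA (2.10 to 3.42), with 0.394 in NRO (HS) and 0.147 in NRO, and was 1.70-fold higher in abundance (1.32 to 2.19), with 0.338 in total RNA (HS) and 0.199 in total RNA. *PRE3* (YJL001W), which carries the caspase-like activity, fell in nascent RNA to 0.0265 in NRO (HS), against 0.0873 in NRO (0.304-fold, 0.120 to 0.640), although with only 7 reads in NRO (HS) and 152 in NRO. Its abundance was 0.0546 in total RNA (HS) and 0.0610 in total RNA, a ratio within counting error (0.896, 0.518 to 1.52).

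The β subunits without catalytic activity differed as well. *PRE7* had 0.275 in NRO (HS) and 0.117 in NRO, a 2.35-fold rise (1.74 to 3.15), and 0.368 in total RNA (HS) and 0.220 in total RNA, a ratio of 1.68 (1.31 to 2.15). *PUP3* was higher in both, by 1.41-fold in nascent RNA (1.14 to 1.75) and 1.20-fold in total RNA (1.01 to 1.44). *PRE4* (YFR050C, chrVI:248935-249693 of sacCer2, minus strand) was the only well-covered member that fell past 2-fold in abundance, to 0.0606 in total RNA (HS) against 0.143 in total RNA (0.424-fold, 0.270 to 0.640, from 30 and 97 reads). Its nascent density was 0.160 in NRO (HS) and 0.134 in NRO, within counting error.

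Of the 5 ATPase genes with a model, *RPT6* and *RPT3* moved apart in nascent RNA. *RPT6* (YGL048C, chrVII:410002-411109 of sacCer2, minus strand) had 0.210 in NRO (HS) against 0.0667 in NRO, a 3.15-fold rise (2.41 to 4.08, from 88 and 184 reads), and its abundance was 0.124 in total RNA (HS) and 0.0924 in total RNA (1.34, 0.985 to 1.80). *RPT3* (YDR394W) had 0.121 in NRO (HS) against 0.197 in NRO, a ratio of 0.615 (0.462 to 0.806, from 58 and 621 reads), and an abundance of 0.0901 in total RNA (HS) and 0.102 in total RNA. *RPT5* was 1.46-fold higher in nascent RNA (1.00 to 2.07) and 1.39-fold higher in total RNA (1.03 to 1.88). *RPT2* and *RPT4* were within counting error in both comparisons, with nascent ratios of 1.04 and 1.11 and abundance ratios of 1.12 and 0.863.

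All 4 scaffold and receptor genes had a nascent ratio above 1. *RPN10* (YHR200W, chrVIII:499247-499952 of sacCer2, plus strand) had 260 and 609 reads in NRO (HS) and NRO and rose 2.81-fold (2.42 to 3.26), with a 1.48-fold higher abundance (1.27 to 1.71). The scaffold genes *RPN1* and *RPN2* were the best covered of the complex in total RNA, with 1032 and 1017 reads after heat shock and 1499 and 1149 in log growth. *RPN1* was 1.80-fold higher in nascent RNA (1.56 to 2.07), with 0.217 in NRO (HS) and 0.121 in NRO, but its abundance was 0.513 in total RNA (HS) and 0.547 in total RNA, within counting error. *RPN2* was 1.60-fold higher in nascent RNA (1.38 to 1.85) and 1.21-fold higher in abundance (1.11 to 1.31). *RPN13*, the ubiquitin receptor bound to *RPN2*, had ratios of 1.14 and 1.32, both within counting error.

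In the lid, where 2 genes had enough reads, the order was the reverse of that in the scaffold. *RPN11*, the metalloprotease that cuts ubiquitin off the substrate, had 0.116 in NRO (HS) and 0.125 in NRO (0.922, 0.637 to 1.32), but 0.0827 in total RNA (HS) and 0.0456 in total RNA, a ratio of 1.81 (1.13 to 2.94, from 44 and 33 reads). *RPN6*, which braces the lid against the core particle, had 0.223 in NRO (HS) and 0.246 in NRO (0.906, 0.727 to 1.12), but 0.445 in total RNA (HS) and 0.306 in total RNA, a ratio of 1.45 (1.25 to 1.70). *RPN8*, the partner of *RPN11*, counted among the members past 2-fold in nascent RNA with 3 and 4 reads in NRO (HS) and NRO and an interval of 0.724 to 29.2. *UBP6* counted among the lower ones with a density of 0.000647 in NRO (HS), less than 1 read, against 0.00136 in NRO from 5 reads.

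Nascent RNA and abundance were set side by side for the 22 members with at least 10 reads in every library. Both ratios were above 1 in 12 of them (54.5%), against 26.5% of the 1861 models with as many reads. Both were below 1 in 2 members and in 739 of those models. In 5 members, *PRE8*, *PRE2*, *PRE4*, *RPT4* and *RPN1*, nascent RNA was above 1 and abundance below, and in 3, *PUP2*, *RPN6* and *RPN11*, the opposite. Over the 1861 models those counts were 433 and 195, so neither class was particular to the members. These classes use the ratios alone, and several of the ratios lay within counting error. The core and the regulatory particle had the same share with both ratios above 1, 6 of 11 each.

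**Figure D4:**
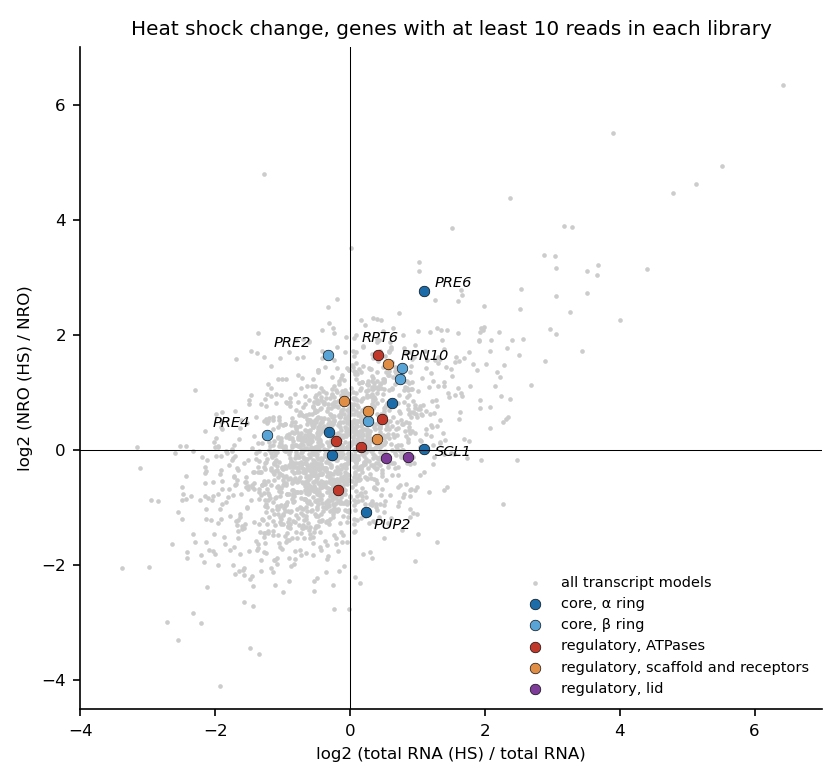
Heat shock change of nascent RNA, log2 of NRO (HS) over NRO (y axis), against that of total RNA, log2 of total RNA (HS) over total RNA (x axis), limited to models with 10 or more reads throughout. Grey points are all such models (1861) and coloured points the 22 proteasome genes among them, of which 12 lie above 0 on both axes.

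The nascent log2 change minus the total RNA log2 change was taken for the 24 members with reads in every library. Its interval lay above 0 in 8 of the 24 members (27.9% of all models) and below 0 in 5 (15.6%). Its median was 0.30 against 0.20 over all models. In NRO (HS) the median member had 47 reads and the median model 8, and more reads give narrower intervals. The nascent change was the larger in *PRE2* (1.97, 1.47 to 2.48), *PRE6* (1.67, 1.27 to 2.07), *PRE4* (1.49, 0.75 to 2.24), *RPT6* (1.23), *RPN1* (0.94), *RPN10* (0.93), *PUP1* (0.66) and *RPN2* (0.41). It was the smaller in *PRE3* (−1.56, −2.87 to −0.24), *PUP2* (−1.31), *SCL1* (−1.09), *RPN11* (−0.98) and *RPN6* (−0.68). Both well-covered lid genes were in the second set and 3 of the 4 scaffold and receptor genes in the first.

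The ratio of nascent RNA to total RNA, which sets synthesis against abundance, was compared with that of all models in each condition. In log growth, NRO over total RNA was below 1 in 19 of 28 members (50.2% of all models), with a median log2 ratio of −0.46 against −0.01 over all models. At 2-fold, 2 members were higher (21.8% of all models) and 8 lower (19%), and 4 of those 8 had fewer than 10 reads in a library. With at least 10 reads in both libraries, 4 of 23 members and 454 of 2606 models were 2-fold lower, the same share. The median log2 ratios were then −0.32 and −0.09. The interval lay above 1 in 5 members (30.1%) and below 1 in 14 (29.9%).

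Among members with at least 10 reads in both libraries, those with the least nascent RNA for their abundance were the scaffold genes and the chymotrypsin-like subunit. In log growth the ratio was 0.220 for *RPN1* (0.203 to 0.239), 0.251 for *PRE2* (0.203 to 0.309), 0.301 for *RPN2* (0.276 to 0.328) and 0.369 for *PRE6* (0.299 to 0.456). The highest ratios were those of *RPN11* (2.75, 1.93 to 4.12), *PUP2* (2.23, 1.51 to 3.44), *RPT3* (1.94, 1.59 to 2.39) and *RPN13* (1.82, 1.36 to 2.46). *RPN11* and *RPN1*, both of the regulatory particle, thus stood at opposite ends.

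After heat shock the members were split evenly about 1. NRO (HS) over total RNA (HS) was above 1 in 13 of 26 members (58.2% of all models), with a median log2 ratio of 0.00 against 0.22 over all models. At 2-fold, 1 member was higher (24.4% of all models) and 4 were lower (12.9%). The interval lay above 1 in 6 (27.3%) and below 1 in 4 (16.3%). Among members with at least 10 reads in both libraries the SD of the log2 ratios was 0.69 after heat shock (22 members) and 0.97 in log growth (23 members). Over all models with as many reads it was 0.88 after heat shock and 1.08 in log growth, so the spread was narrower after heat shock there too. *RPN1* and *RPN2* kept low ratios, 0.422 (0.366 to 0.485) and 0.399 (0.345 to 0.461). *PRE2* was at 0.988 (0.732 to 1.32) and *PRE6* at 1.18 (0.969 to 1.41), and *PRE4* had the highest ratio, 2.64 (1.64 to 4.37).

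**Figure D5:**
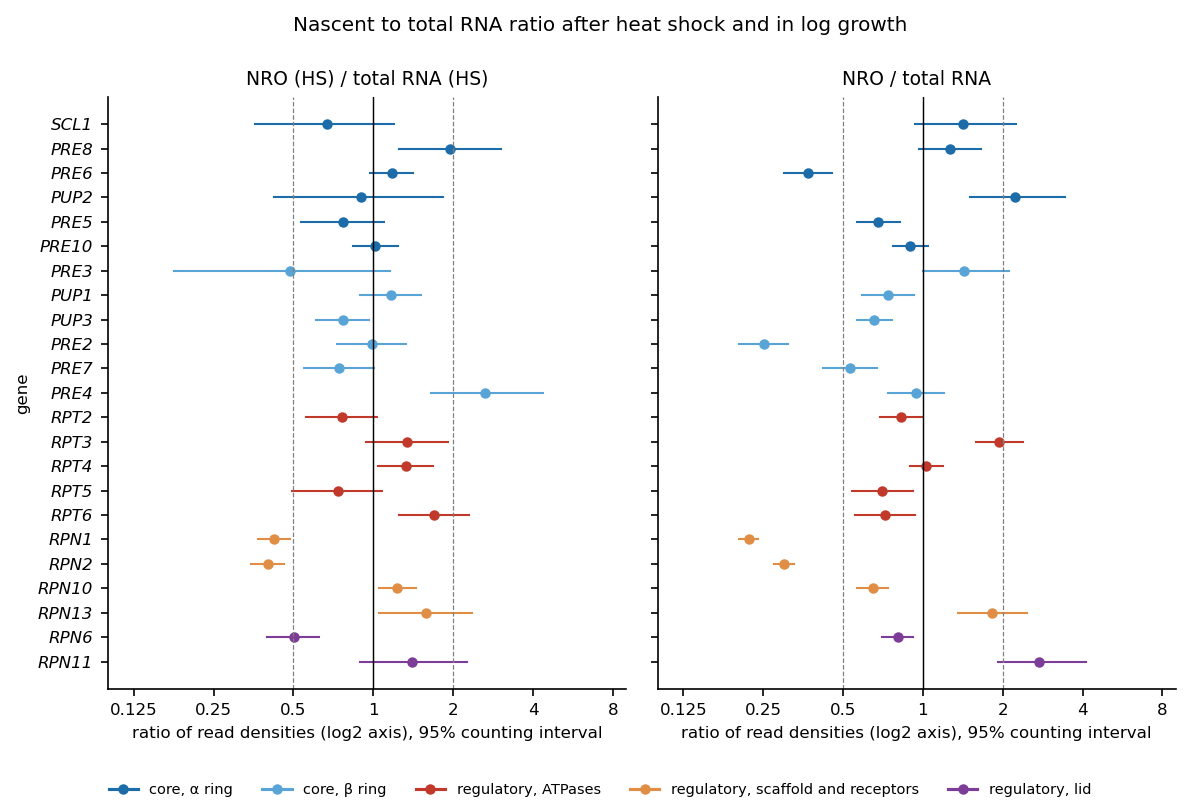
Ratio of nascent to total RNA read density after heat shock (left) and in log growth (right) for the 23 proteasome genes above 0.01 in at least 1 library. Points are ratios on a log2 axis, bars are exact 95% counting intervals, dashed lines mark 2-fold limits and colours mark the subcomplex. *RPN1* and *RPN2* are under 0.5 in both panels, while *PRE2* is at 0.988 on the left and 0.251 on the right.

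The core and the regulatory particle were compared by their medians, and the difference was small beside the spread within each. In NRO (HS) over NRO the median log2 ratio was 0.40 for 12 core genes and 0.19 for 13 regulatory genes, with SDs of 1.21 and 0.95. In total RNA (HS) over total RNA it was 0.09 for 14 core genes and 0.40 for 17 regulatory genes, with SDs of 0.74 and 0.71. Without *SEM1* and *UBP6* the core minus regulatory difference in nascent RNA was 0.04 instead of 0.22. The order of the particles in these medians thus differed between nascent RNA and abundance. With at least 10 reads in both libraries the medians in total RNA were 0.25 for 12 core genes and 0.40 for 11 regulatory genes. By summed reads the core particle was higher in both, 1.82-fold in nascent RNA (1.69 to 1.96) against 1.46-fold for the regulatory particle (1.37 to 1.55), and 1.28-fold in abundance (1.19 to 1.37) against 1.13-fold (1.08 to 1.18), but *PRE6* carried 189 of the 879 core reads in NRO (HS), and *RPN1* and *RPN2* most of the regulatory reads in total RNA. Without *PRE6* the core particle was at 1.52 in nascent RNA (1.39 to 1.65) and 1.17 in abundance (1.08 to 1.27), and its intervals overlapped those of the regulatory particle. No gene was left out of the regulatory particle, so this overlap does not show that the particles were alike.

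By subcomplex, summed nascent RNA was 1.88-fold higher in the α ring (1.70 to 2.08), 1.75-fold in the β ring (1.56 to 1.96), 1.16-fold in the ATPases (1.03 to 1.29) and 1.88-fold in the scaffold and receptor genes (1.74 to 2.04), while the lid was at 0.931 (0.775 to 1.11). Summed abundance was 1.45-fold higher in the α ring (1.31 to 1.61), 1.13-fold in the β ring (1.02 to 1.25), 1.11-fold in the scaffold and receptor genes (1.05 to 1.17) and 1.49-fold in the lid (1.29 to 1.71), and the ATPases were at 1.05 (0.941 to 1.18). The lid values rest almost wholly on *RPN6* and *RPN11*. *PRE6* held 189 of the 482 α ring reads in NRO (HS), and without it the α ring was at 1.28 in nascent RNA (1.13 to 1.45) and 1.24 in abundance (1.09 to 1.40). The median log2 nascent ratio of the α ring was 0.16 over 6 genes, against 0.76 for the 4 scaffold and receptor genes.

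*RPN4*, the gene of the factor that binds the PACE, was near the limit of detection, with no read in NRO (HS) or total RNA (HS), 16 reads in NRO and 3 in total RNA. Its nascent ratio can be bounded only from above, at 1.71, and its abundance ratio at 3.30. Of 10 genes that deliver ubiquitinated substrates to the proteasome or supply ubiquitin, 7 had a total RNA interval above 1 (12.5% of all models), and the median log2 ratio was 0.51. The polyubiquitin gene *UBI4* was highest with 7.38-fold (4.32 to 14.7) and 2.92-fold in nascent RNA (2.09 to 4.0). The shuttle protein genes *DSK2* and *RAD23* were 1.96-fold (1.78 to 2.15) and 1.41-fold (1.26 to 1.56) higher in total RNA, and rose 3.53-fold (3.17 to 3.92) and 2.36-fold (2.09 to 2.66) in nascent RNA. *CDC48*, the gene of the segregase that extracts ubiquitinated proteins, was 1.45-fold (1.34 to 1.56) and 1.72-fold (1.56 to 1.90) higher in total RNA and in nascent RNA. Nascent RNA fell for *UFD2*, a ubiquitin chain elongation factor, to 0.223-fold (0.0889 to 0.469, from 7 and 206 reads), and its total RNA ratio was 0.713 (0.406 to 1.22). *NPL4*, the gene of a Cdc48 cofactor, had a nascent ratio of 0.570 (0.417 to 0.764) and a total RNA ratio of 1.17 (0.806 to 1.70). Of the 10 genes, 6 had a nascent interval above 1 (23% of all models) and 2 below (29.8%). The exact PACE was present in the promoters of *CDC48* and *UBI4* among these 10.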

How the data were processed

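Strand-specific 36-base reads of NRO and total RNA had been aligned by the authors to sacCer2, the build in the submitters' processing notes, with Maq, whose version is not given in the sources used here. Alignments of quality 30 or more outside the rDNA were kept, and replicates were merged. The deposited tables give a coverage signal for each transcript model free of overlap on its strand: summed depth, and read density over mappable nonintronic bases, scaled to the bases acquired.

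Here the smallest unit shared by a library's summed depths was taken as 1 base of 1 read, and reads were estimated as such bases over the read length dividing most low depths (36, but 38 in total RNA, where 36 was also tried). Reads that overlap a region's border enter as fractions, and PCR copies are not independent molecules. Density ratios used no pseudocount, needed values above 0 in both libraries, and were read against a 2-fold limit. The authors used this limit for increased RNA abundance after heat shock, and here it was applied to every ratio. Intervals are exact binomial at 95%, or by the delta method for differences of log2 ratios. No test across replicates or genes was made. Models were matched to RefSeq genes of R64 by locus tag (4259 of 4280). Promoter windows were read from that assembly, while regions of genes are in sacCer2.

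The members, lists and motifs were chosen with earlier results of these data known. By rule, full values were given for catalytic β genes, the 3 highest and 3 lowest members of each comparison with at least 10 reads, *RPN4* and members at 0. Alternatives were a pseudocount of 0.01, at least 10 reads, centring on the median model, density over all bases, leaving out *SEM1* and *UBP6*, a 1.5-fold limit, a 36-base read, intervals against the median ratio, and a shorter motif or window. Steps were tested on simulated data. Software was matplotlib 3.10.9, scipy 1.17.1, pandas 2.3.3 and numpy 2.4.6 under Python 3.11.15.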

Additional observations from a re-analysis of the deposited data

How the results depend on the processing

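In all 20 cases the median of the members moved by less than the median half-width of a member's counting interval, although for NRO (HS) over total RNA (HS) the median went below 0 with a pseudocount (−0.14) and when centred (−0.21). The difference between core and regulatory medians did so in 19 of 20 cases, and for NRO over total RNA it changed sign with a pseudocount of 0.01, at −0.0067 instead of 0.35, and was 0.02 with at least 10 reads. The half-width was 0.35 to 0.45 on the log2 scale, larger than most of the medians and differences judged by it. A value could thus fall to near 0 and still count as unmoved, so these 2 counts cannot show that the values are stable. In NRO (HS) over NRO the core minus regulatory difference went from 0.22 to 0.04 without *SEM1* and *UBP6* within this limit. Counts at the fold limit moved in 15 of 40 cases. In total RNA after heat shock, the 3 higher members became 1 with the pseudocount, 7 when centred on the median model and 7 at 1.5-fold, and the 3 lower became 1 with the pseudocount, 1 with at least 10 reads and 1 when centred. In nascent RNA the 3 lower members became 1 under the same 3 alternatives. In NRO over total RNA, the 2 higher members became 4 at 1.5-fold and the 8 lower became 4 with the pseudocount and 4 with at least 10 reads, and after heat shock the 1 higher member became 5 at 1.5-fold and the 4 lower became 2 and 2. With intervals set against the median ratio of all models, the 2 members below became 1 in total RNA, and in NRO (HS) over total RNA (HS) the 6 above became 3 and the 4 below became 9. The PACE share became 91.2% with 8 letters. Fewer members enter with at least 10 reads, and the other causes were not tested. No paired analysis was possible because each group is 1 pooled column without replicate numbers, and for the same reason no replicate could be left out. Leaving out *PRE6*, chosen after seeing the data, gave summed nascent ratios of 1.52 instead of 1.82 for the core particle and 1.28 instead of 1.88 for the α ring. NRO (HS) had a median of only 8 reads per model, which limits the nascent ratios.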

Other observations

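The genes that help to assemble the proteasome or that bind its ends were less abundant than the subunits, and 11 of 14 had a transcript model. Their median read density was 0.0369 in NRO (HS), 0.0373 in NRO, 0.0348 in total RNA (HS) and 0.0331 in total RNA. Of 10 with a ratio, 2 had a total RNA interval above 1 after heat shock (12.5% of all models) and 1 below (33.3%), with a median log2 ratio of 0.12. *FUB1*, the homologue of a proteasome inhibitor of mammals, was highest, at 2.18-fold in total RNA (1.31 to 3.96) and 2.68-fold in nascent RNA (1.87 to 3.81). *ECM29*, a stabilizing factor and the only gene of the list whose promoter window held the exact PACE, was 1.64-fold higher in total RNA (1.12 to 2.47).

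*UMP1*, the maturation factor that is enclosed in and degraded by the new core particle, was the most abundant of the list in total RNA, with a density of 0.270 in total RNA (HS) against 0.539 in total RNA, a ratio of 0.501 (0.360 to 0.684). Its nascent density was 0.435 in NRO (HS) against 0.627 in NRO, a ratio of 0.693 (0.509 to 0.927). Both of its intervals thus lay below 1, as in 17.4% of all models and in none of the 25 subunit genes with both ratios.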
